A study of Mus musculus with 6 samples.

Results

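The genes described here are 8 members of the Pbx, Meis and Pknox families, which encode cofactors of Hox proteins: Pbx2, Pbx3, Pbx4, Meis1, Meis2, Meis3, Pknox1 and Pknox2. They were chosen by name from the 19057 genes named on the array, and every probe that the platform annotation pairs with one of these symbols was included, 27 of 45281 probes. The samples were motor neurons of the cervical spinal cord from mouse embryos at e12.5, collected by sorting for the HB9::GFP reporter after papain and DNase treatment, 3 labelled wild type and 3 labelled Hox5 mutant, with 1 Illumina bead array each. The mutant genotype is Hoxa5fl/fl::olig2CREHoxc5-/-, in which olig2CRE removes Hoxa5 from the Olig2 lineage that gives rise to motor neurons and Hoxc5 is inactivated in the germline. Both groups share the reporter and a mixed background of c57/bl6, balbc and fvb. The labels do not say whether the wild-type embryos carried olig2CRE or whether a sample is 1 embryo or a pool, and p-values therefore cover only the spread among these 6 samples. Values are log2 intensities after background correction and quantile normalization, and differences are mutant minus wild type.

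Pbx, Meis and Pknox proteins are homeodomain transcription factors of the TALE class, named for a short extension in a loop of the homeodomain. Pbx proteins bind DNA beside Hox proteins and sharpen which sites a Hox protein recognises, while Meis and Pknox proteins bind Pbx and help to hold it in the nucleus. In the mouse spinal cord Pbx activity is needed for Hox-dependent organisation of motor neurons into columns.

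The promoters of Pbx4, the member that varied most within groups, of Meis2, which had the difference of greatest size, and of its paralog Meis1 are shown, for comparison of the Pbx core between them. Each window runs from 250 bases before to 50 bases after the start site in RefSeq, build GRCm38.p6, at chr8:69832374-69832673 on the plus strand for Pbx4, chr11:19018920-19019219 on the minus strand for Meis1 and chr2:116064570-116064869 on the minus strand for Meis2. Capitals mark TGAT, the core that Pbx proteins bind, on either strand.
Pbx4: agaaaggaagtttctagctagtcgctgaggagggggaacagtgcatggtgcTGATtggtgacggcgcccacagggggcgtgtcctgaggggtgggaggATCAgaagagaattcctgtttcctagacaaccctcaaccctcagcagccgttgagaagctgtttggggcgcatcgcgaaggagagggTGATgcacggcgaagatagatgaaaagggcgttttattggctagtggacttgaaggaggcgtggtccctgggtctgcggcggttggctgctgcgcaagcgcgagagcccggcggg
Meis1: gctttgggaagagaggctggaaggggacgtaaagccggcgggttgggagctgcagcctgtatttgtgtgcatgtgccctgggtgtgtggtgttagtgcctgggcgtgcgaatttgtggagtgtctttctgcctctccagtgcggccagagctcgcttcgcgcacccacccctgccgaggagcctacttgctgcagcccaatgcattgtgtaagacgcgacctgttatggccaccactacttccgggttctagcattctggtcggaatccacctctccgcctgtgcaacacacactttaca
Meis2: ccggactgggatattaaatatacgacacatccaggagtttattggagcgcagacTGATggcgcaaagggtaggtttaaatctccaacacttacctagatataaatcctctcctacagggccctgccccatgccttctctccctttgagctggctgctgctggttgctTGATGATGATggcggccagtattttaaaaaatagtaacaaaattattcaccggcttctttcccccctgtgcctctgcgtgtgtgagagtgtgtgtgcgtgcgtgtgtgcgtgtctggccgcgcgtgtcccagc
RefSeq promoters matched 5 of the 8 members, and those not matched were Pbx3, Pknox1 and Pknox2. TGAT occurred 3 times in the Pbx4 window and 4 times in that of Meis2, where 3 of the copies overlap. These letters are not in the Meis1 window, nor in those of Pbx2 and Meis3, which are not shown. Over all 32851 promoter windows of this length 72.9% held TGAT, with a median of 1 copy. The motifs TGACAG (a Meis and Pknox core, in 19.2% of all windows), TGATNNAT (Pbx with Hox, 8.85%) and TGAT followed directly by TGACAG (Pbx with Meis or Pknox, 0.222%), searched on both strands, were in none of the 5 matched windows. TGATTGAT, a special case of TGATNNAT, was in 0.746% of all windows. A match is only a run of letters, and no binding was measured here.

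Mutant replicate 1 stood apart from the other 5 arrays. Of 7 blood markers tested, 6 were highest there, as were all 6 mesenchyme and all 5 endothelium markers tested. Their median difference between this array and the mean of the other 5 was 4.32, 3.06 and 3.20 on the log2 scale. Summed blood marker intensities, as deposited, were 74383 on this array and 2929 and 4127.5 on mutant replicates 2 and 3. They were 12387, 1815.8 and 1748.5 on wild-type replicates 1, 2 and 3, so wild-type replicate 1 was the next highest array. Among others, the blood markers Hbb-b1 and Alas2 and the endothelium markers Cdh5, Kdr, Pecam1, Tie1 and Tek were not among the features tested. Of 12 mesenchyme markers, Col1a1, Col1a2, Col3a1, Prrx1, Meox1 and Meox2 were not tested either. All 10 motor neuron markers were tested, with a median of −0.53 on mutant replicate 1. Among them, mean wild-type levels were 9.98 for Isl1 and 8.58 for Chat, but 6.35 for Slc18a3 and 5.78 for Mnx1. Isl2 and Slc5a7 were detected on 3 of 6 arrays each. Of 13 interneuron markers 10 were detected and tested too, with a median of −0.87 on mutant replicate 1. Summed deposited intensities on the wild-type arrays were 6066 to 7811 for the motor neuron markers and 11060 to 13926 for the interneuron markers. On mutant replicates 1, 2 and 3 they were 4393, 8665 and 5737 against 5618, 14051 and 14902. Probes of different genes differ in brightness, so these sums compare arrays within a list but not the lists with each other. The share of each cell type was not measured. With RNA from whole sorted samples, fewer cells of a type and less RNA per cell cannot be told apart. Of the targeted genes, Hoxa5 measured 13.99 ± 0.0432 (SD, n = 3) in the wild type against 13.54 ± 0.348 (SD, n = 3) in the arrays labelled mutant, and Hoxc5, which was not lower there, 6.58 ± 0.105 against 7.31 ± 0.633. No source used here places these probes relative to the deletions. The mutant label could not be checked in this way, and every direction below rests on it.

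All 8 cofactor genes were detected on all 6 arrays by their brightest probe, and none passed the test between the groups. Of the 8, 6 were lower and 2 higher on the arrays labelled mutant, with a median difference of −0.14, against 52.6% lower and a median of −0.014 over all 13638 features tested. No cofactor passed an adjusted p of 0.05 in limma, and neither did any other feature (0% of features). An unadjusted p under 0.05 was reached by none of the 8 and by 250 features, 1.83% of all. The groups overlapped for all 8 genes, while 5.51% of features had groups that did not overlap, 2.84% with the mutant arrays lower and 2.66% with them higher. Without mutant replicate 1 the 8 genes split into 4 lower and 4 higher, with a median difference of 0.021, where 49% of all features were lower. The plot of values by array shows each gene on its 6 arrays.

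**Figure D1:**
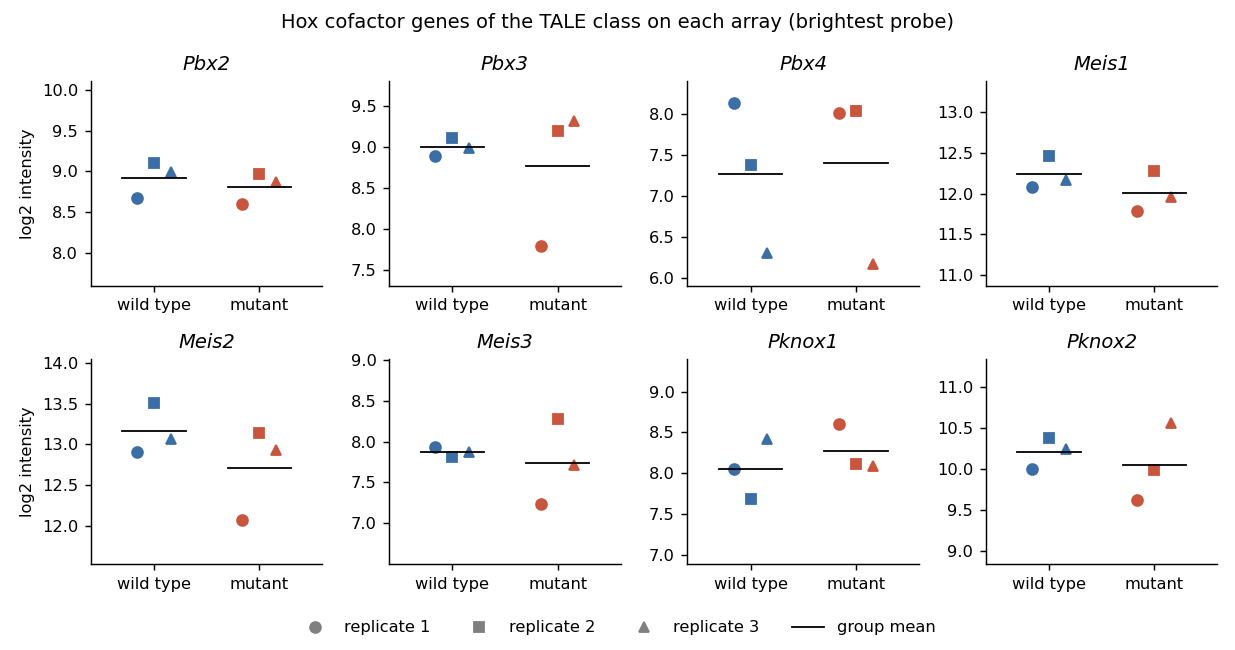
Log2 intensity (vertical axis) of the brightest probe of each cofactor gene on the 3 wild-type arrays (blue) and the 3 arrays labelled mutant (red), with the replicate number given by the marker and the group mean by a line. All panels span the same height on the log2 scale but start at different levels. In 6 of 8 panels the lowest point is mutant replicate 1, and in the Pbx4 panel both arrays numbered 3 are lowest.

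Pbx2, a broadly expressed Pbx gene, varied least among the 8. Its brightest probe, ILMN_2599858, read 8.68, 9.11 and 8.99 on wild-type replicates 1, 2 and 3 and 8.60, 8.97 and 8.87 on mutant replicates 1, 2 and 3. The mutant values lay from just under the wild-type range to inside it. The difference was −0.11 (95% confidence interval −0.54 to 0.32), that is 0.926-fold with bounds of 0.688-fold and 1.245-fold, at a limma adjusted p of 0.997. With single arrays left out it ran from −0.24, without wild-type replicate 1, to −0.0063, without mutant replicate 1, and was −0.021 without wild-type replicate 2. A second probe of Pbx2, ILMN_2916489, differed by −0.14, and the remaining one, ILMN_1248852, by 0.15.

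Pbx3, which in the mouse is needed for breathing control by the hindbrain, read 8.89, 9.11 and 8.99 on the wild-type arrays and 7.79, 9.19 and 9.31 on mutant replicates 1, 2 and 3. Mutant replicate 1 lay below every other array and the other two mutant arrays lay above every wild-type array. The difference of −0.23 (−1.17 to 0.71) was far smaller than the spread in the mutant group, where the SD was 0.846 against 0.11 in the wild type. Without mutant replicate 1 its sign turned, to 0.26 (−0.10 to 0.62), with an unadjusted p of 0.135 in limma that adjusted to 1. A second probe, ILMN_2642147, was also lowest on mutant replicate 1 and highest on mutant replicate 3, with 8.64, 8.92 and 8.97 on the wild-type arrays and 7.54, 8.87 and 9.24 on the mutant arrays. The remaining Pbx3 probe, ILMN_2650972, was detected on none of the 6 arrays.

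Pbx4, the family member known mainly from the testis in adult mice, was the most variable of the 8 within groups. It read 8.13, 7.38 and 6.30 on wild-type replicates 1, 2 and 3 and 8.01, 8.03 and 6.17 on mutant replicates 1, 2 and 3. Both arrays numbered 3 were low, and the remaining mutant arrays were close to wild-type replicate 1. Highest and lowest arrays differed 3.90-fold, and 97.9% of all features had a smaller within-group SD than its 0.997. The group means, at 7.27 ± 0.921 (SD, n = 3) and 7.40 ± 1.07 (SD, n = 3), differed by 0.13 (−1.36 to 1.63). The sign turned without wild-type replicate 3 (−0.35), mutant replicate 1 (−0.17) or mutant replicate 2 (−0.18), and the difference was 0.75 without mutant replicate 3. A second Pbx4 probe, ILMN_1218585, was not detected on the arrays numbered 3, where it had its lowest values, 4.54 in the wild type and 4.78 in the mutant. The remaining Pbx4 probe, ILMN_1232103, was detected on 2 arrays only, those numbered 2.

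The Meis genes encode partners of Pbx, and Meis1 and Meis2 are induced by retinoic acid in several cell types. Meis1, on probe ILMN_1218266, read 12.08, 12.46 and 12.17 on the wild-type arrays and 11.79, 12.28 and 11.96 on mutant replicates 1, 2 and 3. Of the mutant arrays 1 lay inside the wild-type range and 2 below it. The difference was −0.23 (−0.67 to 0.22), at an adjusted p of 0.997 in limma, and −0.12 (−0.57 to 0.33) without mutant replicate 1. Both other Meis1 probes pointed the same way, at −0.24 for ILMN_1248401 and −0.33 for ILMN_1218217, which was not detected on mutant replicate 1.

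Meis2 had the difference of greatest size among the 8. It read 12.91, 13.51 and 13.06 on the wild-type arrays and 12.08, 13.15 and 12.93 on mutant replicates 1, 2 and 3. Mutant replicate 1 was the lowest array, and the remaining mutant arrays lay within the wild-type range. The group means of 13.16 ± 0.308 (SD, n = 3) and 12.72 ± 0.565 (SD, n = 3) differed by −0.44 (−1.18 to 0.29), that is 0.736-fold with bounds of 0.442-fold and 1.22-fold, at a limma p of 0.196 that adjusted to 0.997. It was −0.12 (−0.63 to 0.38) with mutant replicate 1 left out. Among the other Meis2 probes, ILMN_2774121 was at −0.20, ILMN_1232525 at 0.073 and ILMN_1215821 at −0.30. The groups did not overlap on ILMN_1215821, which read 5.55, 5.47 and 5.51 in the wild type and 4.97, 5.37 and 5.30 in the mutant, and its limma adjusted p was 0.998. This probe was near background. Its deposited intensities did overlap, at 129.1, 114 and 119.9 in the wild type and 110.7, 123.8 and 126.7 in the mutant.

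Meis3, known in the frog Xenopus for a part in hindbrain patterning, was steady in the wild type and scattered in the mutant on its brightest probe. It read 7.93, 7.82 and 7.88 on the wild-type arrays and 7.24, 8.27 and 7.72 on mutant replicates 1, 2 and 3. Mutant replicate 2 lay above and the other two mutant arrays below every wild-type array. The SD was 0.059 in the wild type and 0.518 in the mutant, and the difference was −0.13 (−0.75 to 0.49), turning to 0.12 (−0.35 to 0.59) without mutant replicate 1. Another Meis3 probe, ILMN_3050644, read 7.49, 6.73 and 7.18 in the wild type and 6.31, 7.16 and 5.89 in the mutant. Its difference of −0.68 (−1.50 to 0.14) had the smallest unadjusted p of all 22 cofactor probes tested, 0.0909, with a limma adjusted p of 0.998. The last, ILMN_3126848, was at −0.35. The wild-type SD was 0.378 on ILMN_3050644 and 0.225 on ILMN_3126848, so these probes were less steady in the wild type.

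The Pknox genes, also called Prep, encode relatives of the Meis proteins that bind Pbx as well, and Pknox1 is essential in the early mouse embryo. Pknox1 was the one gene of the 8 with its highest value on mutant replicate 1. It read 8.06, 7.69 and 8.42 on the wild-type arrays and 8.60, 8.11 and 8.09 on mutant replicates 1, 2 and 3, with mutant replicates 2 and 3 inside the wild-type range. The difference was 0.21 (−0.35 to 0.78), and 0.049 without mutant replicate 1. Its other probe, ILMN_2780760, pointed the opposite way, with 7.724, 8.004 and 7.611 in the wild type and 7.501, 7.516 and 7.551 in the mutant. These groups did not overlap, and the difference of −0.26 (−0.64 to 0.12) had a limma adjusted p of 0.998. In the deposited intensities of this probe the groups overlapped. The 2 probes gave no shared direction for Pknox1.

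Pknox2 read 9.997, 10.38 and 10.24 on the wild-type arrays and 9.63, 9.98 and 10.56 on mutant replicates 1, 2 and 3. The mutant arrays lay on both sides of the wild-type range. The difference of −0.15 (−0.76 to 0.46) turned to 0.063 (−0.46 to 0.59) without mutant replicate 1. Of the other 5 Pknox2 probes, 2 were detected on 4 arrays each, 1 on 2 arrays and 2 on none, so the values of this gene rest on ILMN_3135037. Of the 2 that were tested, ILMN_3058014 was at −0.20 and ILMN_2663139 at 0.26.

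**Figure D2:**
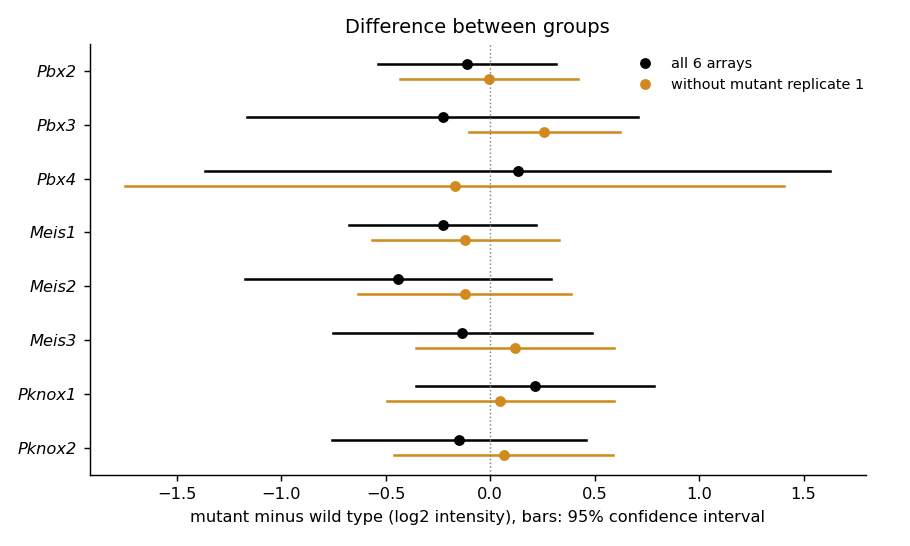
Difference between the groups, mutant minus wild type in log2 intensity (horizontal axis), for the brightest probe of each gene, with its 95% confidence interval from limma, over all 6 arrays (black) and without mutant replicate 1 (orange). Every interval includes 0, and Pbx3, Pbx4, Meis3 and Pknox2 change side when that array is left out.

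Of the 27 probes, 22 were detected on at least 3 arrays and were tested as single probes, 18 of them on all 6 arrays. Among the 22, 16 were lower and 6 higher in the mutant, with 54.4% lower over all 19735 probes tested. Probes of 1 gene were read on the same arrays and are not independent, and they could not be placed on transcripts. Of the 14 probes other than the brightest, 10 had the sign of the brightest probe of their gene and 4 the opposite sign, in Pbx2, Meis2, Pknox1 and Pknox2. Groups that did not overlap were found for 2 of the 22, one each in Meis2 and Pknox1, beside 5.93% of all probes. No cofactor probe reached an unadjusted p of 0.05 in limma, which 1.9% of all probes did, and none of the 19735 passed after adjustment (0% of probes). Of the 22, 12 were lower when mutant replicate 1 was left out. The share over all probes without that array was not computed, and over the 13638 features it was 49%.

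**Figure D3:**
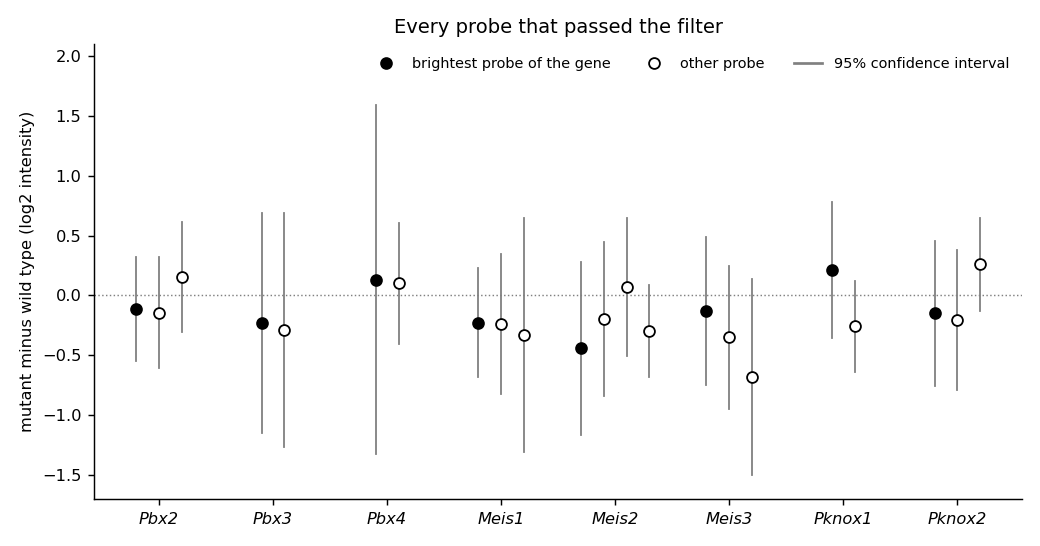
Difference between the groups, mutant minus wild type in log2 intensity (vertical axis), for each of the 22 cofactor probes that were tested, grouped by gene, with 95% confidence intervals from limma. Filled circles are the brightest probe of each gene and open circles the others. All intervals include 0, and the 3 Meis1 probes share a sign while the 2 Pknox1 probes do not.

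Most of the cofactors had their lowest value on mutant replicate 1, by amounts that differed widely. This array was the lowest of the 6 for 6 of the 8 genes, beside 35.7% of all features, and for 15 of 22 probes, beside 36.9%. Its difference from the mean of the other 5 arrays was −1.31 for Pbx3, −1.03 for Meis2, −0.69 for Meis3, −0.61 for Pknox2, −0.40 for Meis1 and −0.32 for Pbx2. Pknox1 stood at 0.53 and Pbx4 at 0.80, and Pknox1 was the single gene for which this array was the highest, as it was for 25.6% of all features. Only 1.28% of all features had a value below that of Pbx3 and 2.85% below that of Meis2, while Meis1 and Pbx2 were in the body of the distribution, with 23.4% and 29.3% of features below them. The median was −0.50 over the 8 genes and −0.066 over all features. On the same array the motor neuron markers were at −0.53 and the interneuron markers at −0.87 by their medians, the ventral progenitor markers at 0.79, and the blood, mesenchyme and endothelium markers at 3.06 or above, and the part of these in the cofactor values was not tested.

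**Figure D4:**
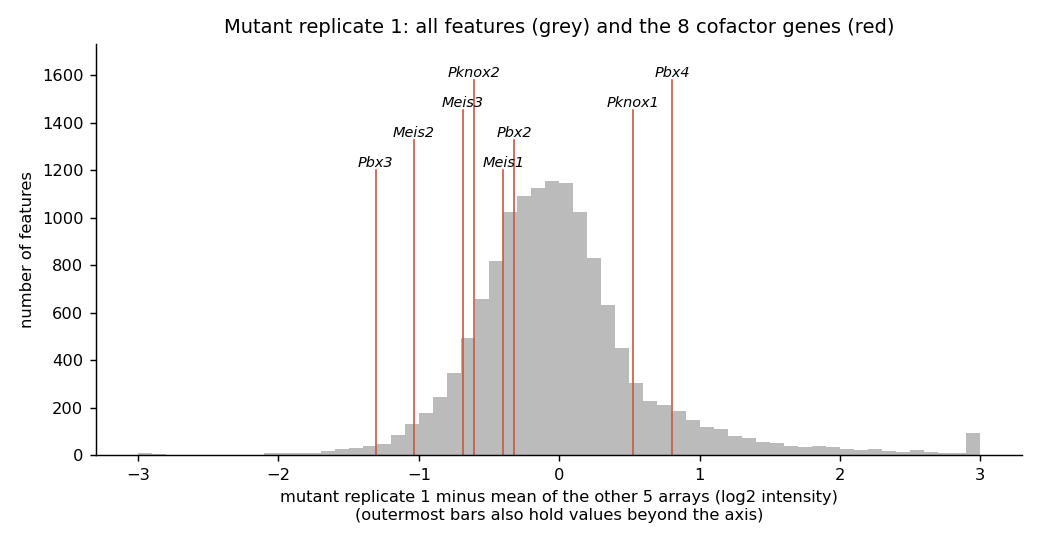
Number of features (vertical axis) by the difference between mutant replicate 1 and the mean of the other 5 arrays in log2 intensity (horizontal axis, grey bars), with a red line at the value of each cofactor gene. Pbx3 and Meis2 lie in the lower tail at −1.31 and −1.03, and Pknox1 and Pbx4 lie above 0.

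The pattern of Pbx4, low on both arrays numbered 3, was shared with other genes of chromosome 8, where Pbx4 lies. Likeness was measured as the root mean square difference between the 6 values of 2 genes, each centred on its own mean but not scaled. A small value means a like profile, or that both genes vary little. The named gene nearest to Pbx4 was Ccdc124, at 0.153, also of chromosome 8, and the median over all features was 0.858. Ccdc124 read 10.74, 10.01 and 9.02 on the wild-type arrays and 10.38, 10.59 and 9.05 on mutant replicates 1, 2 and 3. Among the 20 named genes nearest to Pbx4, a number chosen after the values were seen, 7 were of chromosome 8, or 35%, where 5.49% of named features are. They were Ccdc124, Zfp869, Usp38, Rtbdn, Wdr83os, Zfp930 and Pgpep1. Usp38, which encodes a ubiquitin protease, read 7.12, 6.60 and 5.01 in the wild type and 7.166, 7.502 and 5.003 in the mutant.

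For the other 7 cofactors, 0 to 3 of the 20 nearest genes shared their chromosome. Few of the neighbours of Pbx4 had this pattern. Of the 20 features tested that flank it in the gene order of GRCm38.p6, 10 on each side, 3 had both arrays numbered 3 as their lowest, namely Zfp930, Zfp869 and Lpar2, beside 5.91% of all features. The labels describe all embryos as of mixed strain, and no source used here gives their genotypes along chromosome 8. The part of strain in the Pbx4 values was not tested.

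**Figure D5:**
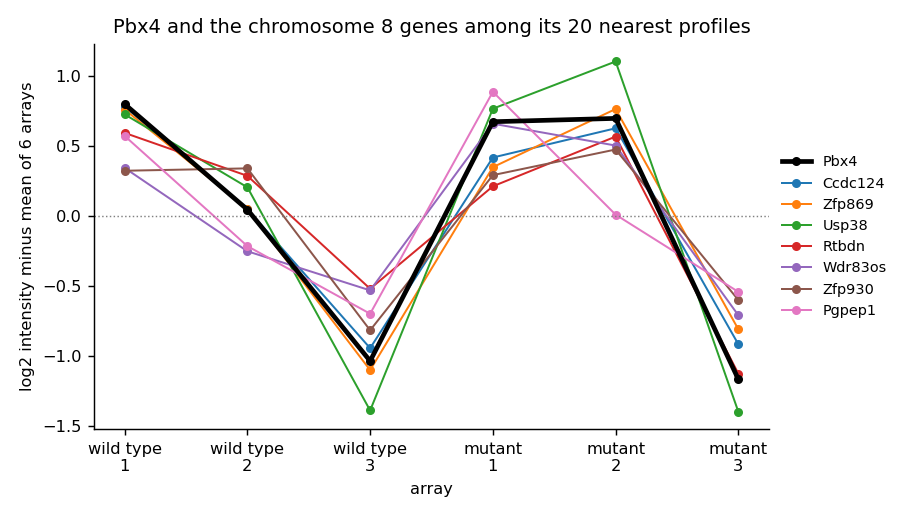
Log2 intensity minus the gene's mean over the 6 arrays (vertical axis) on each array (horizontal axis) for Pbx4 (black) and the 7 chromosome 8 genes among the 20 named genes with the nearest profile, joined by lines to aid the eye. All 8 genes are lowest on wild-type replicate 3 and mutant replicate 3, the arrays on which Pbx4 read 6.30 and 6.17.

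Among the cofactors themselves, Meis1 and Pbx2 had the most similar profiles, at 0.113, and 1.44% of all features were nearer to Meis1 than Pbx2 was. Meis2 was nearest to Meis1 at 0.247, and Pbx3 to Meis2 at 0.2501. For Pbx4 and Pknox1 44.5% and 61.1% of features were nearer than the nearest cofactor. Over all named genes the nearest profile was that of Gria2 for Meis1, at 0.0284, Itga3 for Pbx2, at 0.0254, and 6820431F20Rik for Meis2, at 0.054. It was C1ql4 for Pbx3, at 0.0846, Zfhx2 for Meis3, at 0.0687, Mlxipl for Pknox1, at 0.0571, and Zfp266 for Pknox2, at 0.0414. With 6 arrays such likeness is a description of these samples.

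The remaining TALE genes and the proteins that cofactors work with showed no passing member either. Of 9 other TALE genes, the Irx, Tgif and Mkx genes, 7 were tested, and 0 passed in either direction, with 3 higher and 4 lower and a median of −0.27, against 2 higher, 5 lower and −0.15 without mutant replicate 1. Irx1, an Iroquois factor of neural patterning, read 7.02, 7.18 and 6.84 in the wild type and 6.79, 6.90 and 6.52 in the mutant, a difference of −0.27 (−0.68 to 0.13). Irx2 of the same family was at −0.37 (−0.94 to 0.21) and −0.15 without mutant replicate 1.

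Coregulators reported to bind Pbx or Meis proteins were tested for 5 of 9 genes, of which 2 were higher and 3 lower (median −0.0061), and 0 passed. Without mutant replicate 1 all 5 were higher, with a median of 0.046, where 49% of all features were lower. The acetyltransferase gene Ep300 was at −0.48 (−1.45 to 0.49) and its paralog Crebbp at −0.46 (−1.59 to 0.67). Ep300 read 8.39 on mutant replicate 1 and 9.80 to 10.03 on the other arrays, and without that array the difference was 0.023 for Ep300 and 0.046 for Crebbp.

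Hox genes of paralog groups 1 to 8 other than Hox5, whose products bind DNA beside Pbx, were lower for 13 of 17 tested (median −0.19), and 0 passed. Over all features 52.6% were lower. Hoxc6, which acts at brachial levels, read 14.39, 14.69 and 14.69 in the wild type and 13.70, 14.14 and 14.33 in the mutant. These groups did not overlap, as for 5.51% of all features. The difference was −0.53 (−1.02 to −0.048), at a limma adjusted p of 0.997. Hoxc6 was named for the smallest unadjusted p of the 17 in limma, so an interval without 0 partly reflects that choice. Hoxa2, a hindbrain gene, was at −0.44 (−1.14 to 0.26). Without mutant replicate 1 the list had 9 lower and 8 higher (median −0.061), beside 49% of all features lower, with Hoxc6 at −0.35 and Hoxa2 at −0.16. Of the Hox genes of groups 9 to 13, which act at thoracic levels and below, 6 of 16 were tested, 4 of them higher (median 0.16), and 0 passed. Hoxa13 was at 0.32 (−0.062 to 0.71) and Hoxd11, detected on 3 of 6 arrays, at 0.45 (−0.11 to 1.02).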

How the data were processed

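Per the labels' protocols, RNA of each sample was amplified by the Illumina TotalPrep kit, carried biotin and was hybridised to 1 array. The deposited table holds non-normalized intensities on a linear scale and a detection p-value per probe and array, per the file headers, with medians of 97.7 to 109.8. A second table holds intensities normalized by the authors, which plain quantile normalization of the first matched within 1.45%. No source used here names the scanner software or the slides. Columns of values that matched no sample numbered 0.

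Normexp correction (limma 3.58.1, R 4.3.3) took the background from the detection p-values and added an offset of 16. Values were then put on the log2 scale and quantile normalized. Probes with a detection p under 0.05 on at least 3 arrays were kept, and 19307 to 20307 were detected per array. Each gene was represented by its brightest probe and unnamed probes by themselves, 13638 features in all. Symbols came from the platform annotation (34885 probes with 1 symbol, 18 with several, 10378 unnamed), and chromosomes from RefSeq GRCm38.p6, which 34807 probes matched. Groups were compared in a model of genotype alone (lmFit, eBayes), adjusted by Benjamini-Hochberg over all features, and the fit was tested on simulated data. Single probes were fitted the same way over 19735 probes. The number of arrays limits the precision.

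The members and lists were chosen with earlier results of these data known. The genes named are the 8 members, the targeted genes, the 2 members of each context list with the smallest unadjusted p and the nearest named gene of each member. Markers are named to show which defining genes of a cell type were or were not tested, and for motor neurons at what level. The 7 chromosome 8 genes, the neighbours of Pbx4 and the 2 genes named for single alternatives were chosen after their values were seen. The alternatives changed the background correction, offset, normalization, filter, probe summary, variance model, array weights, replicate block and arrays left out.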

Additional observations from a re-analysis of the deposited data

How the results depend on the processing

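No cofactor passed under any of the 12 other settings or with any of the 6 arrays left out, and the smallest limma adjusted p of a cofactor was 0.834. Over all features the count that passed was 1 with median scaling (Thap4) and ran from 0 to 1 with single arrays left out, the 1 being Cops8 without mutant replicate 3. The number of cofactors lower was 5 or 6 under the other settings and 4 to 7 with single arrays left out, and their median difference ran from −0.14 to −0.027 and from −0.28 to 0.021. With array weights Pbx3 turned to 0.13, Meis3 to 0.17 and Pknox1 to −0.016. With single arrays left out the differences ran from −0.50 to 0.26 for Pbx3, −0.35 to 0.75 for Pbx4, −0.40 to 0.12 for Meis3 and −0.40 to 0.063 for Pknox2, all of which include both signs. They ran from −0.24 to −0.0063 for Pbx2, −0.36 to −0.12 for Meis1, −0.66 to −0.12 for Meis2 and 0.032 to 0.40 for Pknox1. The cause of these turns was not tested. Whether the replicate numbers pair the arrays could not be decided. Same-numbered arrays had correlations of 0.32, 0.013 and 0.10 of their deviations from the group means over all features. Differently numbered arrays had correlations from −0.46 to 0.39. Deviations from a mean of 3 arrays must sum to 0, so these correlations depend on each other. With the replicate number as a block 0 features passed, no cofactor call changed, and the smallest adjusted p of a cofactor was 0.955. A slide block was not run because the headers give no slide. Probes near background, such as 5 of the 27, limit what can be seen of single transcripts.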
